A study of Mus musculus with 6 samples.

Results

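The guidance genes described here are the semaphorins of classes 3 to 7 and their plexin and neuropilin receptors, the ephrins and Eph receptors, the netrins and Unc5 receptors, and the Slits and their Robo receptors. Rows were matched by mouse gene symbol and not by a measured value, but the set was chosen with earlier results of these data known. Of the 22186 rows of the expression table, 68 carried such a symbol, 35 ligands and 33 receptors. Messenger RNA was sequenced from primary adipose-derived stromal cells (ADSCs), fibroblast-like progenitors from mouse fat. The Treg co-culture group held 3 libraries of ADSCs kept for 48 h with regulatory T cells (Treg), which restrain immune responses, and the control group held 3 libraries of ADSCs with no Treg. All 6 libraries were of wild-type genotype, and the labels give no age, sex or strain. Whether each library had its own animal or culture is not stated either, and the p-values therefore reflect only library-to-library spread, which may be technical. No group was grown with other cells, and so what Treg did and what sharing a dish with any cell did cannot be told apart.

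Guidance proteins were named for steering growing axons. Most work as pairs in which a secreted or membrane-bound ligand meets a receptor on another cell, and the receptor then loosens or firms up the cell's actin skeleton and its adhesion. Outside the nervous system the same pairs steer the growth of blood vessels and the movement and spacing of mesenchymal cells and myoblasts. Ephrins are themselves anchored in a membrane and can signal back into the cell that carries them.

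The deposited unit was TPM, which corrects read numbers for transcript length and scales every library to the same total of 1000000. Levels can therefore be compared between genes, but sequencing depth is lost and no counting interval can be given. Differences are given as log2 fold changes of TPM + 1, Treg co-culture minus control, which understates the change of low genes. A gene was called when its limma p, with Benjamini-Hochberg adjustment over the 12405 genes whose mean reached 1 TPM, was under 0.05. SE are limma's moderated standard errors.

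Stromal markers were abundant in every library. The 12 adipose stromal markers summed to 13584 to 14131 TPM in Treg co-culture libraries and 15606 to 16366 TPM in controls, with 9 called lower and 1 higher. Of 12 T cell markers in the table, 7, among them Cd3e, Cd3d, Cd3g, Cd4 and Il2ra, were at 0 in all 6 libraries, and the list summed to 3.83 to 4.26 TPM after co-culture and 3.37 to 3.88 TPM in controls. Muscle markers were higher in all 8 tested members, with a sum of 2832 to 2884 TPM after co-culture and 983 to 1044 TPM in controls. Endothelial markers summed to 35.8 to 37.2 TPM after co-culture and 39.7 to 42.3 TPM in controls (1 of 6 tested higher, 2 lower), pericyte markers to 18.6 to 19.7 and 28.0 to 29.4 TPM (1 of 4 higher, 1 lower), and macrophage markers to 66.4 to 78.7 and 91.0 to 98.0 TPM (none of 7 higher, 1 lower). Of 9 Schwann and neuronal markers only 2 passed the filter, the tubulin Tubb3 (called higher) and the receptor Ngfr (called lower), and the list summed to 79.9 to 85.2 and 69.2 to 70.4 TPM. Treg co-culture 1 stood apart in liver and adult heart transcripts, with 64.9 TPM of Alb against at most 0.21 TPM elsewhere. In bulk RNA, fewer cells of a type and less RNA per cell cannot be told apart. The part of these marker differences in the results on guidance genes was not tested.

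Guidance transcripts changed in both directions after Treg co-culture, and more of them were lower than higher. The netrin receptor Unc5b was the member with the highest log2 fold change (0.85), while Slit3, the most abundant member, was lower (-0.43), together with Slit2, the netrins Ntn1 and Ntn4, the class 3 semaphorins Sema3c, Sema3d and Sema3f, and both neuropilins. Besides Unc5b, the receptor Epha2 and the ligands Efnb2, Sema3a and Sema7a were higher. Of the 68 members, 51 reached the mean of 1 TPM needed for the test, and 17 lay below it. Of the 51, 22 were called (43.1%), against 37.8% of all genes tested. Those called higher were 5 (9.80%, against 19.8% of all genes tested), and those called lower were 17 (33.3%, against 18.0%). The median log2 fold change was -0.13 over the 51 members and 0.0015 over all genes tested.

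Sizes were modest. The 22 called members had a median absolute log2 fold change of 0.33, against 0.31 for all 4688 called genes, and Unc5b alone reached 0.5. The groups did not overlap in 31 of the 51 tested members, all 22 called and 9 of the 29 others, against 49.3% of all genes tested. Ligands and receptors were called in similar proportion, 12 of 29 ligands (3 higher, 9 lower) and 10 of 22 receptors (2 higher, 8 lower). Of the 18 members with a mean of at least 20 TPM 13 were called, against 46.0% of all genes at that level, and of the 11 with a mean under 5 TPM none, against 21.3%. Without Treg co-culture 1, the library with liver and heart transcripts, 5 of the 51 members were called higher and 15 lower. Of all 12405 genes tested, 2080 were then called higher and 1850 lower, against 2454 and 2234 with every library.

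**Figure D1:**
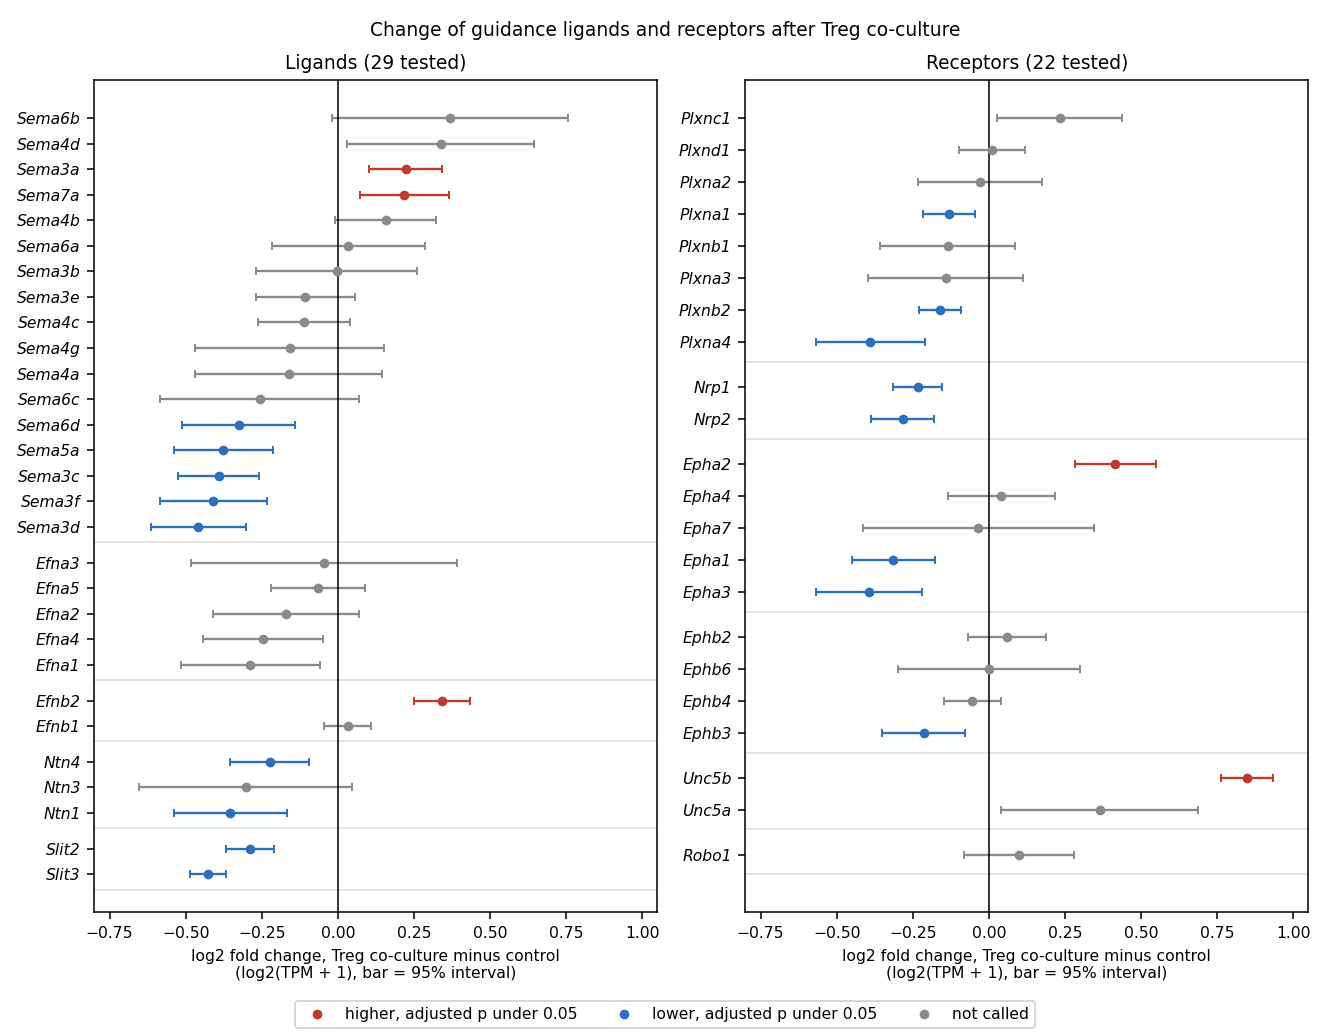
Log2 fold change on the log2(TPM + 1) scale (horizontal axis, Treg co-culture minus control) of the 51 tested guidance genes, 29 ligands on the left and 22 receptors on the right, grouped by family; points are limma estimates and bars their 95% intervals. Unc5b (0.85) lies far right of the other receptors, and the called Slits, netrins and neuropilins lie left of 0.

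Slit3 and Slit2 were the most plentiful secreted guidance ligands in these cells and both fell, while Robo1, the Robo receptor with the most transcript, was not called. Slits are large secreted proteins that repel cells by binding Robo receptors. Slit3 had 385.5, 398.1 and 391.7 TPM in the Treg co-culture libraries, against 511.6, 538.9 and 530.4 TPM in controls. The groups were well apart, and at this level Slit3 ranked 293 of the 22186 rows by mean TPM. Its mean was 391.8 ± 6.33 TPM after co-culture and 527 ± 14.0 TPM in controls (SD, n = 3 each), a log2 fold change of -0.43 (SE 0.03, limma adjusted p = 9.89e-07).

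Slit2 followed at a lower level, with 73.8, 76.2 and 76.8 TPM after co-culture against 94.2, 91.7 and 91.5 TPM in controls. Its groups did not overlap either, and its log2 fold change was -0.29 (SE 0.04, adjusted p = 0.000136). Slit1, which is best known from the nervous system, stayed at or under 0.488 TPM in every library. The 3 Slits together summed to 468 ± 7.66 TPM after co-culture and 620 ± 12.6 TPM in controls, and Slit3 made up 83.8% of that sum after co-culture and 85.0% in controls.

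Robo receptors were far less abundant than their ligands. Robo1 had 9.20, 9.85 and 8.94 TPM after co-culture against 8.84, 8.33 and 8.76 TPM in controls. Its Treg co-culture values lay just above the control values, but the log2 fold change of 0.10 missed the threshold (95% interval -0.08 to 0.28, adjusted p = 0.373). Robo2 had 0.125 to 0.219 TPM after co-culture and 0.271 to 0.439 TPM in controls, and Robo3 stayed under 0.2 TPM in all libraries. Robo4, a receptor of endothelial cells, had 1.14, 0.687 and 0.247 TPM after co-culture and 0.935, 1.38 and 1.57 TPM in controls, a wide spread with overlapping groups just below the filter.

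Of the 3 netrins tested, Ntn1 and Ntn4 fell, while the netrin receptor Unc5b rose. Netrins are secreted, laminin-related proteins that attract cells through Dcc or neogenin and repel them through Unc5 receptors, and Unc5b is the Unc5 receptor known from blood vessels. Unc5b had 165, 176 and 172 TPM in the Treg co-culture libraries, against 90.6, 97.3 and 95.1 TPM in controls. Every co-culture value was far above every control value. The mean was 171 ± 5.59 TPM after co-culture and 94.3 ± 3.43 TPM in controls (SD, n = 3 each), a 1.81-fold difference, and the log2 fold change of 0.85 (SE 0.04, limma adjusted p = 1.15e-07) was the 194th highest of the 12405 genes tested. An exact two-sided permutation test of a gene whose groups do not overlap gives p = 0.1, and no smaller p can be had with 3 libraries a group.

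The other Unc5 receptors were much lower. Unc5a had 4.72, 4.33 and 4.34 TPM after co-culture and 2.46, 4.00 and 3.41 TPM in controls. All its co-culture values were above the controls, but control 1 lay well under the other controls and the log2 fold change of 0.36 (SE 0.15) was not called (adjusted p = 0.0739, and 0.0338 without control 2). Unc5c had 0.374 to 0.532 TPM and 0.423 to 0.520 TPM, and Unc5d stayed under 0.1 TPM. Unc5b thus accounted for 97.2% of the summed Unc5 TPM after co-culture and 96.1% in controls.

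Ntn4, a netrin of basement membranes, had 29.3, 27.2 and 27.2 TPM after co-culture against 31.7, 31.9 and 34.8 TPM in controls (log2 fold change -0.22, SE 0.06, adjusted p = 0.0121). Ntn1, the founding axon attractant, had 11.7, 11.6 and 12.4 TPM against 14.1, 15.4 and 17.2 TPM in controls (-0.35, SE 0.08, adjusted p = 0.00735). The groups of both genes were apart, and the controls of Ntn1 were more spread out than its co-culture libraries. Ntn3 was near the filter, at 1.01 ± 0.167 TPM and 1.47 ± 0.137 TPM, and was not called (-0.30, adjusted p = 0.159, and 0.0268 without the mean-variance trend). Ntn5 was listed at 0 in the 3 controls and at 0.071, 0.322 and 0.212 TPM after co-culture.

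The netrin attraction receptor Dcc was listed at 0 in all 6 libraries, whereas neogenin, Neo1, the other receptor of that class, had 119 ± 4.14 TPM after co-culture and 130.0 ± 1.98 TPM in controls. Neo1 was called lower by a small margin (-0.13, SE 0.04, adjusted p = 0.0163), and the call was lost without Treg co-culture 1 (adjusted p = 0.0616) and without the trend (0.0667).

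The promoters of Unc5b and Slit3 are shown because these are the higher and the lower member with the lowest p. Each sequence is the 250 bases before the RefSeq gene start, 5′ to 3′ on the gene's strand, in assembly GRCm38.p6. Capitals mark every match of the GC box GGGCGG or its reverse complement CCGCCC, and matches that overlap each other were counted separately. Unc5b lies on the minus strand (chr10:60831582-60831831) and Slit3 on the plus strand (chr11:35121206-35121455).
Unc5b: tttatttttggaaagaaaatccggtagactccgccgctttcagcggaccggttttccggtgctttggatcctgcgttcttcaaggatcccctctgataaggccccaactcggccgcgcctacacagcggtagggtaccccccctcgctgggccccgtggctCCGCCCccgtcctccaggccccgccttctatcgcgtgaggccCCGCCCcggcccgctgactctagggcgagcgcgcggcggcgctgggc
Slit3: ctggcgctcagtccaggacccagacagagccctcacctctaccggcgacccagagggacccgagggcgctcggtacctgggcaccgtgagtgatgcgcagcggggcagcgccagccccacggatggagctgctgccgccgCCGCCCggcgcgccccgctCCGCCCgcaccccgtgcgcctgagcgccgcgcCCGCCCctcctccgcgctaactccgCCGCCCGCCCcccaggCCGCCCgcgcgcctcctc

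Both stretches were rich in G and C, at 66.8% for Unc5b and 78.8% for Slit3, and held 2 and 6 GC boxes. The same box, on either strand, occurred in the 250 bases before the start of 35.4% of the 27025 genes with an entry and of 64.9% of the 9870 of them that were tested here. It occurred in 38 of the 45 tested guidance genes with one, in 4 of 5 called higher and in 11 of 13 called lower. The E-box CANNTG, a palindrome and the general motif of myogenic and other bHLH factors, had no match in either stretch. The E-box was found in 69.3% of all genes with an entry and 61.1% of those tested, in 22 of the 45 tested guidance genes, in 3 of 5 called higher and in 6 of 13 called lower. Such matches describe letters only.

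**Figure D2:**
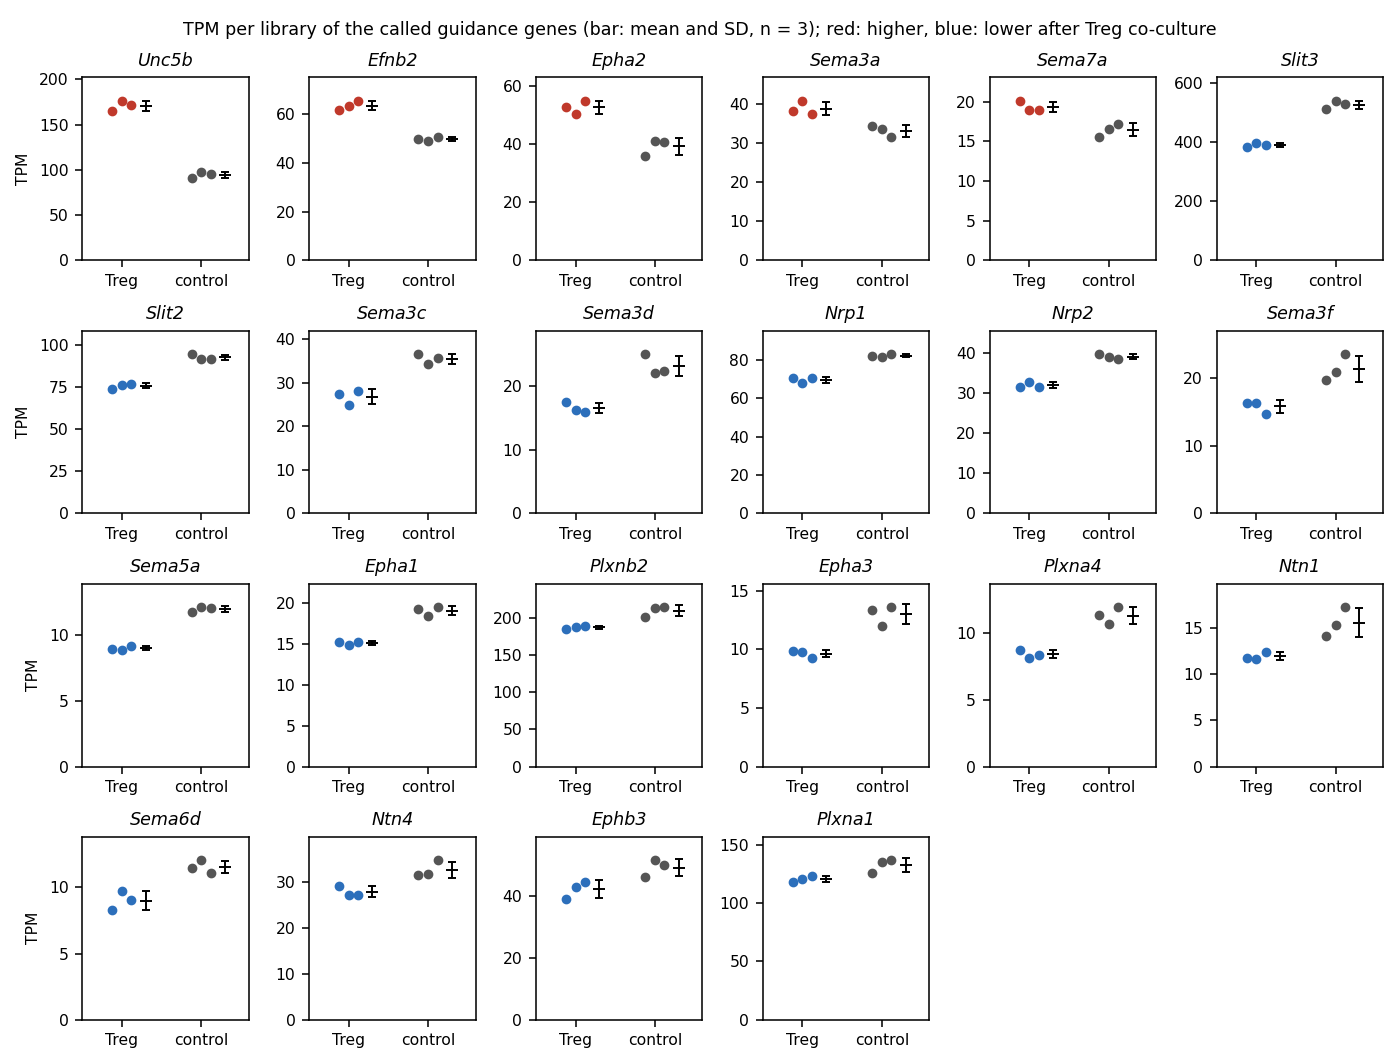
TPM (vertical axis, from 0) of each of the 22 called guidance genes in the 3 Treg co-culture libraries (left, colored) and the 3 control libraries (right, grey), with the mean and SD beside each group. In every panel the groups are apart, and relative to its level the gap is widest for Unc5b, at 165 to 176 TPM after co-culture and 90.6 to 97.3 TPM in controls.

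Class 3 semaphorins split, with Sema3c, Sema3d and Sema3f lower and Sema3a higher. These are the secreted semaphorins, which bind neuropilins, with a plexin passing the signal on. Sema3d had the lowest log2 fold change of all guidance genes (-0.46, SE 0.07, limma adjusted p = 0.000578), with 17.5, 16.3 and 15.9 TPM after co-culture against 25.0, 22.0 and 22.4 TPM in controls. Sema3c, known for its part in heart outflow tract development, had 27.3, 24.8 and 28.1 TPM against 36.4, 34.2 and 35.5 TPM in controls (-0.39, SE 0.06, adjusted p = 0.000553). Sema3f, which acts through neuropilin 2, had 16.4, 16.4 and 14.7 TPM against 19.7, 21.0 and 23.5 TPM in controls (-0.41, SE 0.08, adjusted p = 0.00243). The co-culture values of all 3 genes were below all control values.

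Sema3a, which acts through neuropilin 1, went the other way. It was the most abundant semaphorin by the mean of all 6 libraries, though in controls Sema3c was above it (means of 35.4 and 33.1 TPM). It had 38.3, 40.7 and 37.4 TPM after co-culture against 34.3, 33.5 and 31.5 TPM in controls (0.22, SE 0.05, adjusted p = 0.00874). Its groups were apart, though by less than those of Sema3c and Sema3d. Sema3e, a direct ligand of Plxnd1, had 13.3 ± 0.357 TPM after co-culture and 14.5 ± 0.936 TPM in controls and was not called (-0.11, 95% interval -0.27 to 0.06). Sema3b had 10.97 ± 1.67 and 10.97 ± 1.37 TPM, and Sema3g stayed near the filter at 0.717 ± 0.124 and 0.808 ± 0.351 TPM.

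In the RefSeq gene table of GRCm38.p6, Sema3d, Sema3a, Sema3e and Sema3c follow each other in this order on chromosome 5. No other protein-coding gene starts between Sema3d and Sema3a, the gene with the lowest and a gene with a positive log2 fold change, 3 start between Sema3a and Sema3e, and 15 between Sema3e and Sema3c. The 7 class 3 semaphorins summed to 123 ± 1.43 TPM after co-culture and 139 ± 1.64 TPM in controls, and the share of Sema3a in that sum was 31.5% and 23.8%.

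Both neuropilins fell by a similar amount. Neuropilins are co-receptors that hold class 3 semaphorins and also some VEGF forms. Nrp1 had 70.6, 68.0 and 70.8 TPM after co-culture against 82.1, 81.6 and 83.0 TPM in controls (-0.23, SE 0.04, limma adjusted p = 0.000602). Nrp2 had 31.6, 32.8 and 31.4 TPM against 39.7, 39.1 and 38.5 TPM in controls (-0.28, SE 0.05, adjusted p = 0.000913). Neither gene showed overlap between the groups, and the spread within each group was small.

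Among the plexins, the signalling receptors of semaphorins, 3 of 8 tested were called lower and none higher. The share called was 37.5%, against 37.8% of all genes tested (18.0% lower and 19.8% higher). Plxnb2, the most abundant receptor of the whole set, had 186, 188 and 190 TPM after co-culture against 202, 214 and 214 TPM in controls (-0.16, SE 0.03, adjusted p = 0.00268). Plxna4 had 8.74, 8.15 and 8.37 TPM against 11.3, 10.7 and 11.9 TPM in controls (-0.39, SE 0.08, adjusted p = 0.0035). Plxna1 had 118, 121 and 124 TPM against 126, 136 and 137 TPM in controls, which left a narrow gap between the groups (-0.13, SE 0.04, adjusted p = 0.0211). The Plxna1 call was lost without control 2 (adjusted p = 0.0725), control 3 (0.0784), co-culture library 1 (0.0761) or co-culture library 2 (0.052), and without the trend (0.0803).

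The other plexins were not called. Plxnd1 had 35.2 ± 0.852 TPM after co-culture and 35.0 ± 0.953 TPM in controls, and its 95% interval of -0.10 to 0.12 held no difference of the size seen for the neuropilins. Plxna2 was at 6.53 ± 0.387 and 6.68 ± 0.208 TPM, Plxna3 at 5.79 ± 0.519 and 6.51 ± 0.839 TPM, and Plxnb1 at 5.06 ± 0.279 and 5.65 ± 0.317 TPM. Plxnb3 stayed under 0.2 TPM.

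Sema7a was the only called semaphorin of classes 4 to 7 that was higher. It is held in the membrane by a lipid anchor and binds Plxnc1 and the integrin made of Itga1 and Itgb1. Sema7a had 20.04, 18.95 and 18.94 TPM after co-culture against 15.6, 16.5 and 17.2 TPM in controls (0.22, SE 0.07, limma adjusted p = 0.0232). Its groups were apart, but the call was lost without control 1 (adjusted p = 0.0714), control 2 (0.0523) or Treg co-culture 1 (0.0882).

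The receptors of Sema7a were at unlike levels. Plxnc1 had 6.52, 6.54 and 7.03 TPM after co-culture against 5.40, 5.44 and 5.81 TPM in controls, all co-culture values being above the controls. It missed the threshold (0.23, SE 0.09, adjusted p = 0.0723) and passed it without the trend (0.0139). Itga1 fell, with 20.9, 21.3 and 20.2 TPM against 34.0, 32.9 and 33.1 TPM in controls (-0.66, SE 0.05, adjusted p = 6.4e-06). Itgb1, which pairs with many alpha chains, was at 1115 ± 9.05 and 1057 ± 25.3 TPM (0.08, SE 0.02, adjusted p = 0.0151, lost without control 2, control 3 or Treg co-culture 3 and without the trend).

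Sema5a and Sema6d were the other called semaphorins, and both fell. Sema5a, a membrane protein with thrombospondin repeats, had 8.95, 8.87 and 9.15 TPM after co-culture against 11.7, 12.1 and 12.1 TPM in controls (-0.38, SE 0.07, adjusted p = 0.00249). Sema6d, a ligand of Plxna1, had 8.27, 9.70 and 9.06 TPM against 11.46, 12.04 and 11.10 TPM in controls (-0.33, SE 0.08, adjusted p = 0.0117). Sema5a was tight in both groups, and Sema6d varied more among the co-culture libraries.

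Membrane semaphorins that were not called included the most abundant of these classes. Sema4b was at 23.9 ± 2.15 TPM after co-culture and 21.3 ± 0.980 TPM in controls (0.16, adjusted p = 0.125), with Treg co-culture 1, at 21.4 TPM, inside the control range, and it passed without that library (adjusted p = 0.0354). Sema4c was at 18.7 ± 0.724 and 20.3 ± 1.33 TPM. Sema4d, a ligand of Plxnb1 known from T cells, had 3.43, 3.72 and 2.83 TPM against 2.43, 2.10 and 2.73 TPM in controls (0.34, SE 0.14, adjusted p = 0.0797, and 0.0459 without the trend). Between 1 and 6 TPM in every group, and not called, were Sema4a, Sema4g, Sema6a, Sema6b and Sema6c, with log2 fold changes of -0.26 for Sema6c to 0.37 for Sema6b (95% interval -0.02 to 0.76). Sema4f and Sema5b stayed under 0.3 TPM.

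Among ephrin-B ligands Efnb2 was higher and Efnb1 was not called. Efnb2 marks arterial endothelium and is also made by mesenchymal cells. It had 61.5, 63.3 and 65.1 TPM in the Treg co-culture libraries against 49.8, 48.8 and 50.6 TPM in controls (0.34, SE 0.04, limma adjusted p = 0.000123). All co-culture values were at least 10 TPM above the controls. Efnb1, the most abundant ephrin, had 88.2, 91.5 and 89.1 TPM against 85.9, 88.9 and 88.0 TPM in controls, with overlapping groups and a 95% interval of -0.04 to 0.11. Efnb3 stayed under 0.4 TPM.

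The EphB receptors, which bind ephrin-B ligands, changed little. Ephb3 had 39.1, 43.0 and 44.6 TPM after co-culture against 46.0, 51.5 and 49.9 TPM in controls and was called lower (-0.21, SE 0.06, adjusted p = 0.0191). Its highest co-culture value lay just under its lowest control value, and the call was lost without control 2 (adjusted p = 0.0742), control 3 (0.0585) or Treg co-culture 1 (0.0734) and without the trend (0.0548). Ephb4, the receptor of veins that is specific for ephrin-B2, was at 44.1 ± 0.469 and 45.8 ± 0.870 TPM (-0.05, 95% interval -0.15 to 0.04, adjusted p = 0.349).

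Ephb2, which binds several ephrin-B ligands, was at 27.1 ± 0.919 TPM after co-culture and 26.0 ± 1.22 TPM in controls (0.06, 95% interval -0.07 to 0.19). Ephb6, a receptor without kinase activity, was at 3.95 ± 0.716 and 3.92 ± 0.395 TPM, and Ephb1 stayed at or under 0.201 TPM.

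EphA receptors moved apart, with Epha2 higher and Epha1 and Epha3 lower. Epha2 is the EphA receptor common in epithelial and tumor cells. It had 52.6, 50.5 and 54.7 TPM after co-culture against 35.9, 41.1 and 40.7 TPM in controls (0.42, SE 0.06, limma adjusted p = 0.000379). The groups were about 9 TPM apart at their nearest, and control 1 was the lowest library. Epha2 made up 59.2% of the summed EphA TPM after co-culture and 47.5% in controls.

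Epha1 had 15.3, 14.9 and 15.3 TPM after co-culture against 19.3, 18.5 and 19.5 TPM in controls (-0.31, SE 0.06, adjusted p = 0.00261). Epha3, known from mesenchymal cells and from heart cushion development, had 9.89, 9.76 and 9.25 TPM against 13.36, 12.01 and 13.56 TPM in controls (-0.39, SE 0.08, adjusted p = 0.00301). Both had tight co-culture values below all controls. Epha4, which binds ephrins of both classes, was at 9.48 ± 0.386 and 9.18 ± 0.253 TPM (0.04, 95% interval -0.13 to 0.22), and Epha7 was at 1.91 ± 0.531 and 1.95 ± 0.215 TPM. Epha6 and Epha8 were listed at 0 in all libraries, and Epha5 and Epha10 stayed under 0.1 TPM.

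None of the 5 ephrin-A ligands, which are lipid-anchored and bind EphA receptors, was called, and all 5 had a log2 fold change below 0. Efna1, the best known ligand of Epha2, had 7.78, 6.41 and 7.67 TPM after co-culture against 10.1, 8.60 and 8.63 TPM in controls (-0.29, SE 0.10). Efna4 had 8.90, 8.75 and 8.21 TPM against 11.3, 9.42 and 10.6 TPM in controls (-0.25, SE 0.09). The groups of both were apart, and both lay just past the threshold, at adjusted p = 0.0501 for Efna1 and 0.0503 for Efna4. With the replicate block (batch as a term of the fit), Efna1 was called lower (adjusted p = 0.0447) and Efna4 was not (0.0659).

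Efna5, the most abundant ephrin-A, had 14.0, 13.1 and 13.7 TPM after co-culture against 14.9, 13.6 and 14.3 TPM in controls, with overlapping groups (-0.06, 95% interval -0.22 to 0.09). Efna2 was at 8.14 ± 0.610 and 9.32 ± 1.25 TPM (-0.17, adjusted p = 0.248), and Efna3 at 1.68 ± 0.692 and 1.71 ± 0.0980 TPM. Efna1, Efna3 and Efna4 are direct neighbours among the protein-coding genes of chromosome 3. The 5 ephrin-A genes summed to 39.3 ± 0.391 TPM after co-culture and 44.9 ± 1.40 TPM in controls.

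**Figure D3:**
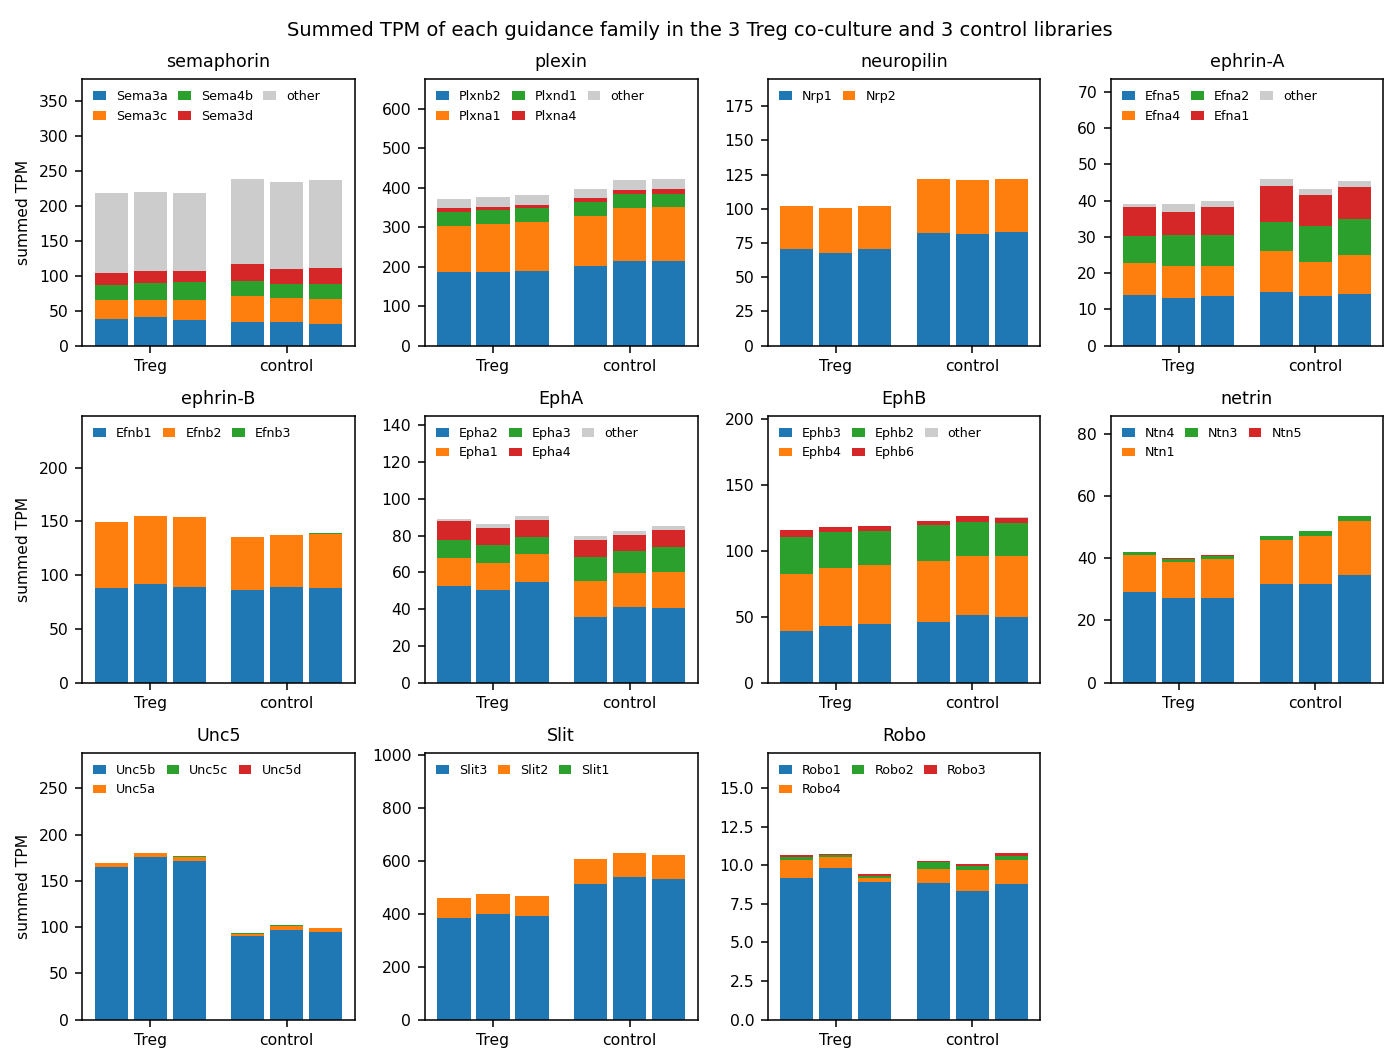
Summed TPM (vertical axis, from 0) of each of the 11 guidance families in the 3 Treg co-culture libraries (left bars) and the 3 control libraries (right bars), with the most abundant members colored and any others grey. The Unc5 bars are higher after co-culture and consist almost wholly of Unc5b, and the Slit bars are lower and consist mostly of Slit3.

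Ligand and receptor sums were set side by side, with no test made on them. Semaphorins summed to 219 ± 0.508 TPM after co-culture and 237 ± 1.91 TPM in controls (0.924 times), and plexins to 377 ± 4.97 and 414 ± 13.4 TPM (0.911 times). Unc5 receptors summed to 176 ± 5.31 TPM after co-culture and 98.1 ± 4.26 TPM in controls, whereas netrins summed to 41.1 ± 1.10 and 49.8 ± 3.38 TPM. Slits summed to 0.755 times the control level, and Robos, at 10.3 ± 0.747 and 10.4 ± 0.381 TPM, to 0.989 times. Ephrin-B ligands summed to 153 ± 2.89 and 138 ± 1.52 TPM and EphB receptors to 118 ± 1.72 and 125 ± 1.93 TPM.

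Over all members the 35 ligands summed to 920.3 ± 10.1 TPM after co-culture and 1089 ± 13.2 TPM in controls. The 33 receptors summed to 871 ± 10.3 and 851 ± 21.4 TPM. The ligand sums of the groups were apart and the receptor sums overlapped. Without Unc5b the other 32 receptors summed to 700.0 ± 7.13 TPM after co-culture and 756.5 ± 18.2 TPM in controls, with the groups apart.

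Co-receptors, other ligands and cytoplasmic effectors of these pathways were looked at as a list of 79 genes, of which 66 were tested. Of these, 21 were called higher and 17 lower (57.6% called, against 37.8% of all genes tested), with a median log2 fold change of 0.03. The list was chosen with earlier results of these data known, and its share was not compared at like levels. Of all genes, 46.0% were called at a mean of at least 20 TPM and 21.3% under 5 TPM. With the replicate block 17 genes of the list were higher and 16 lower, and of all genes tested 2369 were higher and 2123 lower. When 1 library was left out, 14 to 17 genes of the list were called higher and 12 to 16 lower. The lowest counts came without Treg co-culture 2 for the higher and without Treg co-culture 3 for the lower genes. Of all genes tested, 2058 to 2245 were then higher and 1842 to 1982 lower, against 2454 and 2234 with every library.

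Among the higher effectors stood Chn1, a Rac-inactivating protein that acts behind Epha4. It had 8.18, 9.26 and 8.72 TPM after co-culture against 3.40, 3.38 and 4.56 TPM in controls (log2 fold change 1.03, SE 0.12, limma adjusted p = 8.64e-05). Its paralog Chn2 was called lower (5.198 ± 0.132 and 6.635 ± 0.136 TPM, -0.30, adjusted p = 0.0246). Ablim3, an actin-binding LIM protein, had 8.37, 7.53 and 7.07 TPM against 3.28, 3.80 and 3.60 TPM in controls (0.92, SE 0.11). Mean TPM after co-culture was 2.31 times the control mean for Chn1 and 2.15 times for Ablim3. Enah, which promotes actin filament growth behind Robo and netrin receptors, was at 56.2 ± 0.709 and 39.4 ± 0.641 TPM (0.50, SE 0.04), and Gpc1, a heparan sulfate proteoglycan that binds Slits, at 111 ± 3.10 and 81.6 ± 2.32 TPM (0.44, SE 0.04).

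Rgma, a lipid-anchored ligand of neogenin, had the lowest log2 fold change among the 66 tested genes of the list. It had 15.3, 16.0 and 13.8 TPM after co-culture against 27.1, 28.7 and 29.2 TPM in controls (-0.88, SE 0.07, adjusted p = 6.13e-06). Itga1, described above with Sema7a, came next among them, followed by Dpysl5, a collapsin response mediator (1.84 ± 0.217 and 2.77 ± 0.318 TPM, -0.41, adjusted p = 0.0411). The Dpysl5 call was lost with the replicate block (0.0535), without each of the 3 controls (0.0614 to 0.130) and without Treg co-culture 2 (0.0895) or 3 (0.118). Of the other collapsin response mediators on the list, Dpysl3 was called higher (65.3 ± 2.87 and 53.4 ± 0.989 TPM, 0.28, adjusted p = 0.00063). Dpysl2 and Dpysl4 were not called, and Crmp1 lay below the filter. The Slit-Robo GTPase activators Srgap1 (16.4 ± 0.425 and 20.8 ± 0.847 TPM) and Srgap2 (35.2 ± 0.537 and 44.0 ± 1.42 TPM) were also lower, by log2 fold changes of -0.33 and -0.31. Srgap3, of the same family, was called higher (9.62 ± 0.407 and 7.79 ± 0.407 TPM, 0.27, adjusted p = 0.0262).

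**Figure D4:**
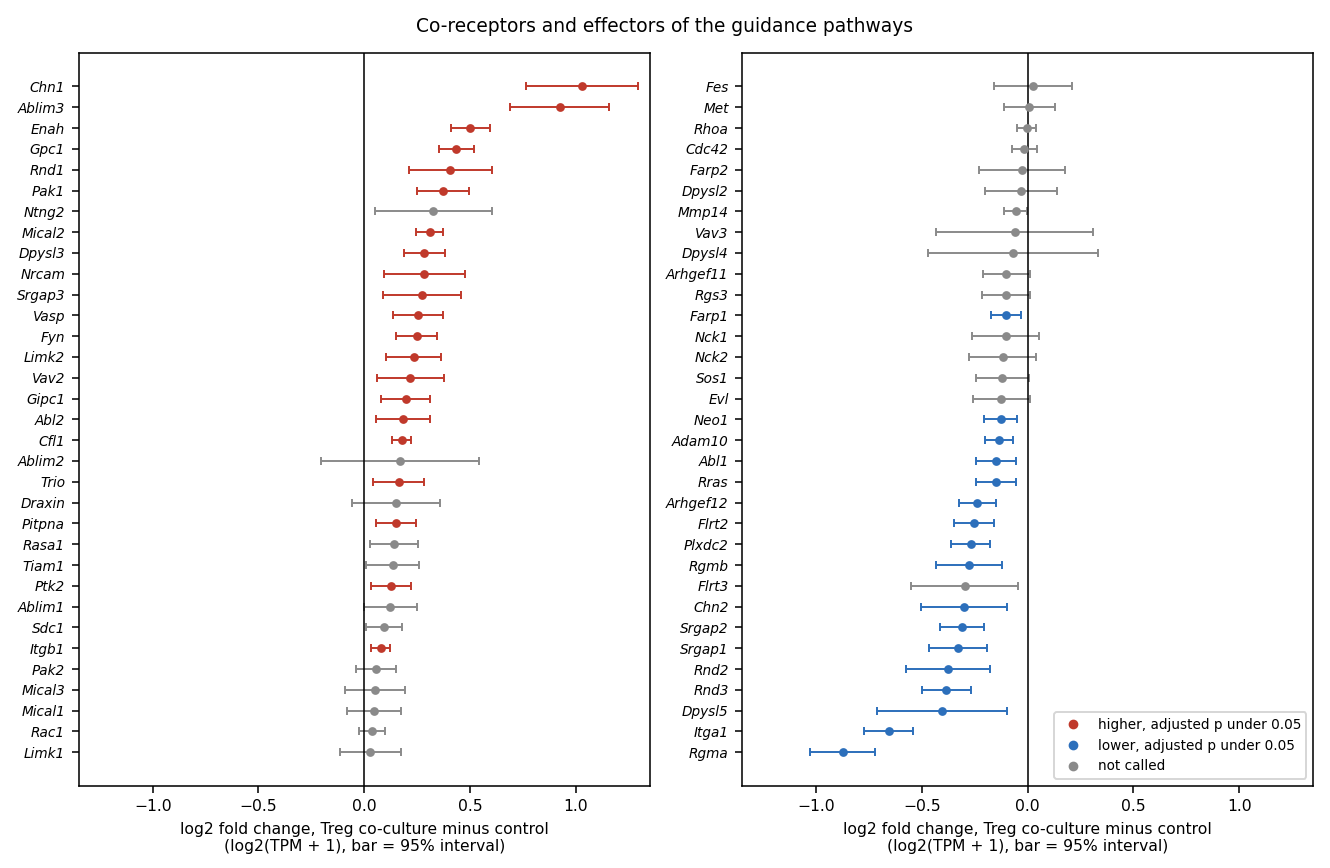
Log2 fold change on the log2(TPM + 1) scale (horizontal axis, Treg co-culture minus control) of the 66 tested co-receptors and effectors, ordered from the highest at the top left to the lowest at the bottom right; bars are 95% intervals of the limma fit. Chn1 (1.03) and Ablim3 (0.92) lie at the upper end and Rgma (-0.88) and Itga1 (-0.66) at the lower end.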

How the data were processed

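Messenger RNA was sequenced from 6 libraries of primary mouse ADSCs, 3 after Treg co-culture and 3 controls. The labels give each library's group and a batch number (1, 2 or 3). The authors deposited TPM values, 1 row per NCBI Gene number, which keep no depth. Per the submitters' processing notes, GRCm38, mm10 and GRCm39 were in use, in roles not stated. Not given in the sources used here were the aligner, the counter, the annotation and the handling of reads shared by paralogs. Symbols for 21992 rows (99.1%) came from a RefSeq gene table of assembly GRCm38.p6, as did promoters.

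The test was limma (version 3.58.1, R 4.3.3; eBayes with a mean-variance trend) on log2(TPM + 1) of genes whose mean reached 1 TPM, with Benjamini-Hochberg adjustment over all of them and a threshold of 0.05. Alternatives were a pseudocount of 0.1, no filter, median-of-ratios scaling, a minimum mean of 5 TPM, no trend, batch as a replicate block and each library left out. Pairing came from the batch labels. Between libraries of 1 batch, deviations from the group mean had correlations of 0.0115, -0.0146 and 0.00402. No pair of libraries shared more than 60 identical values among 13935 genes above 0 in all.

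Values per library are given for members past an absolute log2 fold change of 0.5 and the most abundant of each family. From the effector list the 4 highest and 4 lowest called genes were to be named, and 1 of the lowest is not reported here. Per-library values of other members were added after their values were seen. So were the effectors Neo1, Itgb1, Srgap1, Srgap2, Srgap3, Chn2, Crmp1, Dpysl2, Dpysl3 and Dpysl4. Members and lists were chosen with earlier results of these data known. Python 3.11.15, pandas 2.3.3 and matplotlib 3.10.9 made tables and plots.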

Additional observations from a re-analysis of the deposited data

How the results depend on the processing

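The counts of called guidance genes stayed between 4 and 7 higher and between 15 and 19 lower under every alternative run. Of all genes, 2058 to 2449 were called higher and 1842 to 2293 lower under these alternatives. Tested were 51 guidance genes of 12405 genes, except 66 of 16952 with no filter and 40 of 10458 with the filter of 5 TPM. With 1 library left out, 4 to 5 guidance genes were higher and 15 to 17 lower, and of all genes 2058 to 2245 were higher and 1842 to 1982 lower. With the replicate block 5 guidance genes were higher and 18 lower, and of all genes 2369 were higher and 2123 lower. Beside the call on Efna1 and those on effectors given above, the block changed no call on a named gene. Left out of this were Chn2, Crmp1, Dpysl2, Dpysl3, Dpysl4 and Srgap3, whose calls under the alternatives are not given. Of the 22 called guidance genes, 19 (4 higher, 15 lower) kept their call under all 12 alternatives. Ephb3, Plxna1 and Sema7a lost it under the settings named beside them, and the cause was not tested. Efna1 and Efna4 were called lower with a pseudocount of 0.1 (adjusted p = 0.0496 and 0.0491), a filter of 5 TPM (0.0468 and 0.0474) or median-of-ratios scaling (0.0482 and 0.0471). Efna4 was also called without control 2 (0.0298) and without the trend (0.039). The sign changed only for 7 genes near 0 that were never called. Ephb6 was at -0.0015 with median-of-ratios scaling. With 1 library left out, the log2 fold change ran from -0.114 to 0.0685 for Ephb6, -0.226 to 0.156 for Efna3, -0.145 to 0.12 for Epha7, -0.0594 to 0.0129 for Plxna2, -0.0113 to 0.0305 for Plxnd1, -0.101 to 0.102 for Sema3b and -0.00136 to 0.0539 for Sema6a. TPM keep no depth, so what depth limits at the low genes cannot be stated.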
